A study of Mus musculus with 33 samples.

Results

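The 9 genes described here take part in retinoid metabolism and transport: the short-chain dehydrogenases Rdh10, Rdh7, Sdr9c7, Dhrs3, Rdh11 and Dhrs4, the cytochrome P450 Cyp26a1, and the plasma carriers Rbp4 and Ttr. They were chosen by gene symbol, as every probe set that the platform annotation gives to a single gene of this list, which gave 16 of the 45101 probe sets in the table and 9 of the 18193 genes named there. All 16 passed the filter on dim probe sets, a log2 value of at least 4 on at least 10 of the 33 arrays. Each array held liver RNA of 1 male C57BL/6J mouse, 17 weeks old, after 2 weeks on its diet. The fenofibrate group (n = 12) ate a diet with oleic-rich sunflower oil, at 7% of energy, and 0.03% (w/w) fenofibrate, a drug that activates the nuclear receptor PPARα. In the fish oil group (n = 11) the oil, again 7% of energy, was Marinol C-38, with 23.1% EPA and 21.1% DHA. The control group (n = 10) ate the sunflower oil (81.3% oleic acid) without the drug. All mice came from a single supplier, were housed in pairs and were fasted during the light phase before the liver was taken.

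The liver is the main store of vitamin A. Retinol from the diet is held as retinyl ester, mostly in stellate cells, and leaves the liver bound to Rbp4, which travels in plasma with Ttr. Within cells, dehydrogenases such as Rdh10 oxidize retinol to retinal, reductases such as Dhrs3 turn retinal back into retinol, aldehyde dehydrogenases make retinoic acid from retinal, and Cyp26 enzymes break retinoic acid down. Many of these dehydrogenases also act on steroids or other lipids, so an enzyme of this family need not work on retinoids in liver.

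Levels are the authors' GCRMA values on the log2 scale, and differences are differences of group means on that scale, with the standard error (SE) from limma fitted to all 33 arrays. A probe set was called higher or lower at a Benjamini-Hochberg adjusted p under 0.05 over the 17162 probe sets past the filter. All 8 measured hepatocyte markers were well above the filter level in every group. The labels do not name separate cohorts, so the arrays of a diet differ as mice and as hybridisations together. Control replicates 1, 2 and 9 stood apart from the other controls. Their median correlation with the other controls lay between 0.973 and 0.980, against 0.987 to 0.991 for the remaining controls, and where leaving out all 3 changed the call of a difference printed here, or moved a called one by over 1.5 times, that value is given. Among drug-responsive genes of fatty acid oxidation, Ehhadh was higher than in controls by 2.39 ± 0.18 on fenofibrate (SE, n = 12 and 10) and by 1.20 ± 0.18 on fish oil (n = 11 and 10). Acot1 was higher by 3.41 ± 0.29 on fenofibrate and by 1.73 ± 0.29 on fish oil, and Cyp4a14 by 2.89 ± 0.46 and 2.48 ± 0.47 in the same order of diets. With control replicates 1, 2 and 9 left out, Ehhadh was higher by 2.63 and 1.45, Acot1 by 3.68 and 2.00, and Cyp4a14 by 3.00 and 2.59. These 3 controls also stood apart on the same genes. From lowest to highest their Ehhadh levels were 11.2, 12.7 and 13.4, against 11.5 to 11.7 in the other 7 controls. Acot1 was 7.8, 11.2 and 11.7, against 8.6 to 9.7, and Cyp4a14 was 7.1, 13.6 and 13.8, against 9.1 to 12.2. The cause was not tested.

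Among the members the largest difference from control was in Sdr9c7 on fenofibrate and in Rdh11 on fish oil, while Dhrs4 was higher on both diets. On fenofibrate Sdr9c7 fell about 10-fold and Dhrs4 was 2.00-fold higher than in controls. On fish oil Rdh11 was 3.55-fold lower and Dhrs4 was 1.56-fold higher, while Sdr9c7 was within 0.56 log2 units of control at the edge of its 95% interval. The carriers Rbp4 and Ttr differed by at most 0.10 between any diets. Of the 16 probe sets, 5 were called higher and 5 lower on fenofibrate against control, where 36.6% of all probe sets tested were called (19.6% higher, 17% lower). Those called higher include Cyp26a1, which passed the filter only through the fenofibrate arrays, so its call there is not independent of the filter. On fish oil against control 2 were called higher and 2 lower, where 11.6% of all probe sets were called (6.23% higher, 5.34% lower). Between fenofibrate and fish oil 5 were called higher and 4 lower, where 34.5% were called (17.4% higher, 17.1% lower). The median difference over the 16 probe sets was -0.03, 0.03 and -0.01 in these comparisons, against -0.004, 0.017 and -0.020 over all probe sets tested. Both comparisons with control use the same 10 control arrays. The 5 probe sets called higher on fenofibrate became 3 without control replicate 8, without control replicate 9, and without control replicates 1, 2 and 9 together.

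**Figure D1:**
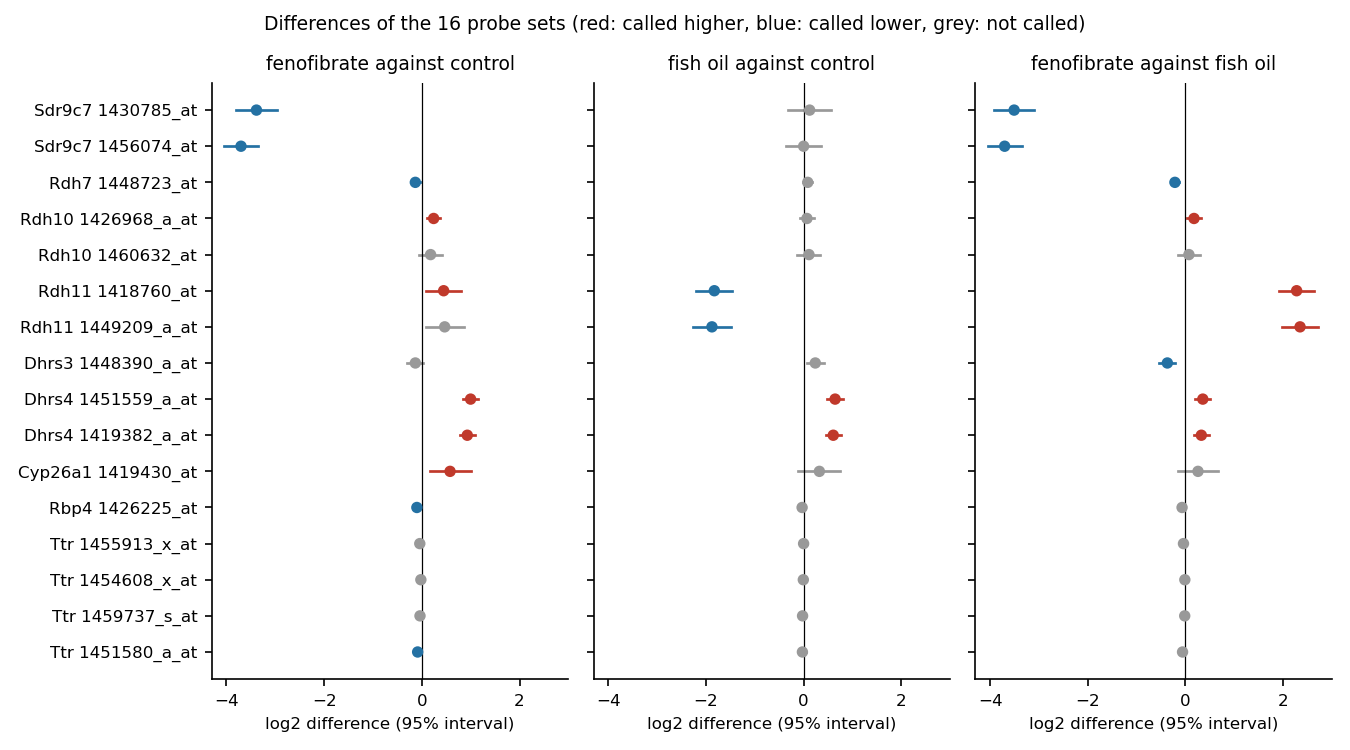
Differences in log2 units (x axis) of the 16 probe sets of the 9 genes (y axis) in the comparisons fenofibrate against control, fish oil against control, and fenofibrate against fish oil; points are differences of group means and lines 95% intervals. Both Sdr9c7 probe sets lie below -3 wherever fenofibrate is compared, both Rdh11 probe sets lie near -1.8 on fish oil against control, and the Ttr and Rbp4 probe sets lie close to 0 in all panels.

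Sdr9c7 is a short-chain dehydrogenase that in the epidermis of human and mouse oxidizes acylceramides of the skin barrier; its role in liver is less known. The gene lies on chromosome 10 beside a row of retinol dehydrogenase genes and directly after Rdh7, whose product is a microsomal retinol dehydrogenase that also oxidizes steroids. The promoters of these neighbours are shown because the measured level of Sdr9c7 fell strongly on fenofibrate and that of Rdh7 changed little. Rdh7 was measured near the upper end of the scale, where differences can be compressed. Each window holds 250 bases before and 50 bases after an annotated start, from RefSeq on GRCm38.p6, read 5′ to 3′ on the strand of the gene; that of Sdr9c7 is chr10:127898285-127898584 (plus strand) and that of Rdh7 is chr10:127889198-127889497 (minus strand). Capitals mark a match to AGGTCA, the half-site bound by many nuclear receptors that pair with the retinoid X receptor, on either strand.
Sdr9c7: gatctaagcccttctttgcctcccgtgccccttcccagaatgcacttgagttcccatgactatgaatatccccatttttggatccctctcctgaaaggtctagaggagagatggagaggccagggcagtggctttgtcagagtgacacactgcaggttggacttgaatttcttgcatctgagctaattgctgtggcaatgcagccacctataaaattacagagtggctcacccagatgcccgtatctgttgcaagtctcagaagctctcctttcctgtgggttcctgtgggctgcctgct
Rdh7: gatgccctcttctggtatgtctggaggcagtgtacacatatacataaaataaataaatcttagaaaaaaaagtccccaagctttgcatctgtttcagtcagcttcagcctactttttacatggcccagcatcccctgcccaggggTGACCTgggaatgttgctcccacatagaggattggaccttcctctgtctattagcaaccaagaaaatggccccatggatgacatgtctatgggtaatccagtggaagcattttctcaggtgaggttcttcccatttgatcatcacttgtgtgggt
The Rdh7 window held AGGTCA on the opposite strand, 105 to 100 bases before the start, while a window at another annotated start of Rdh7 (chr10:127888684-127888983, minus strand) and the Sdr9c7 window held none of the motifs searched. The search used AGGTCA alone, AGGTCA repeated after 1 base or after 5 bases, the variant AGTTCA alone, and AGTTCA repeated after 5 bases, each on both strands; the repeats contain the single half-sites. Of the 32851 mouse promoters in the same table, 5340 (16.3%) held the half-site AGGTCA and 4597 held its variant.

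The leading Sdr9c7 probe set (1430785_at, the brighter of the gene's probe sets on average) had values from 2.93 to 5.59 with a median of 4.92 on fenofibrate. On fish oil it ran from 7.76 to 8.72 with a median of 8.27, and in controls from 7.54 to 8.44 with a median of 8.33. Every fenofibrate array lay below every array of the other diets, while the fish oil and control arrays overlapped, with 3 of 11 fish oil arrays above all controls. The difference of fenofibrate from control was -3.39 ± 0.21 (SE), a 10.5-fold lower level (limma, adjusted p = 1.84e-14). That of fish oil from control was 0.12 ± 0.21 (limma, adjusted p = 0.782; 95% interval -0.31 to 0.56), and that of fenofibrate from fish oil was -3.51 ± 0.20 (adjusted p = 2.62e-15). The second probe set, 1456074_at, gave -3.70 ± 0.18 for fenofibrate against control, a 13.0-fold lower level (limma, adjusted p = 1.71e-17), and -3.70 ± 0.17 for fenofibrate against fish oil. Fenofibrate replicate 11 was the lowest array of its diet on both probe sets. Without it the difference from control was -3.22 on the leading probe set and -3.57 on the other. Without control replicates 1, 2 and 9 the leading difference was -3.41 (limma, adjusted p = 7.9e-13). Sdr9c7 reached the level of 4 on 32 of 33 arrays, and its fenofibrate values lay near that level, where GCRMA values are the least precise.

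**Figure D2:**
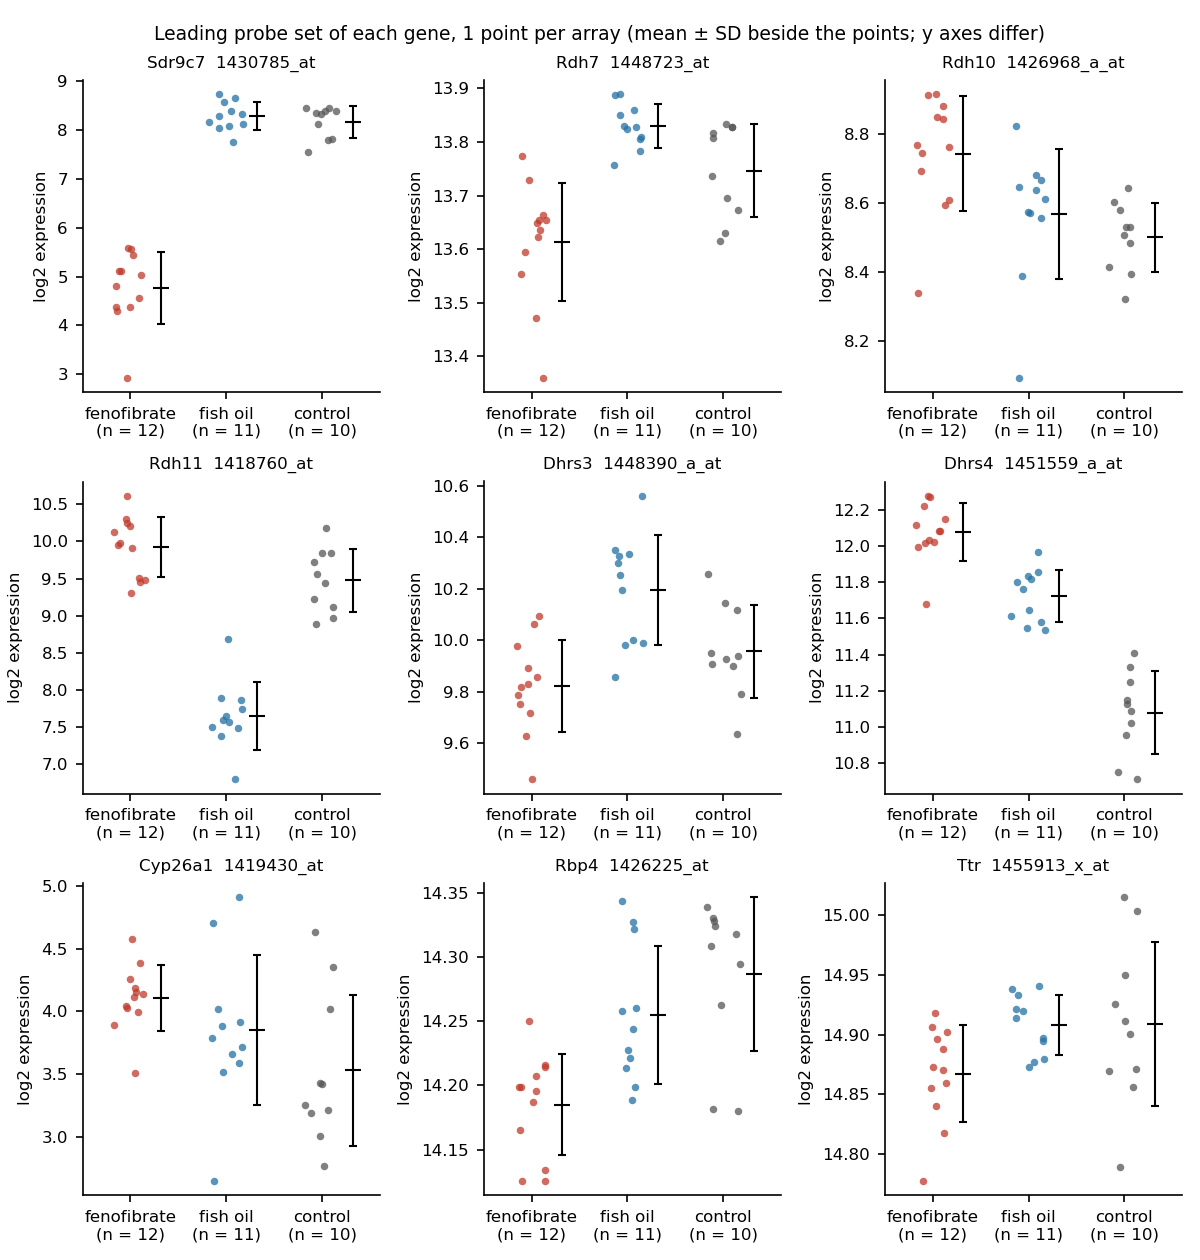
Log2 expression (y axis, a separate scale per panel) of the leading probe set of each gene on each array, by diet; points are arrays, the horizontal mark is the mean and the bar 1 SD. The 12 fenofibrate arrays of Sdr9c7 lie between 2.93 and 5.59, below all others, the 11 fish oil arrays of Rdh11 lie between 6.79 and 8.69, below all others, and Dhrs4 is lowest in the control arrays.

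Rdh7 was among the bright probe sets of the array, with medians of 13.64 on fenofibrate, 13.83 on fish oil and 13.77 in controls. It was lower on fenofibrate than in controls by 0.13 on the log2 scale (-0.13 ± 0.04; limma, adjusted p = 0.0126), a 1.10-fold change, and 4 of 12 fenofibrate arrays lay below all controls. Against fish oil the difference was -0.22 ± 0.04 (limma, adjusted p = 8.91e-05), and 11 of 12 fenofibrate arrays lay below all fish oil arrays. Fish oil and control differed by 0.08 ± 0.04, which was not called (limma, adjusted p = 0.233). The signal lay near the upper end of the scale, where differences can be compressed. The printed differences may therefore be smaller than those of the RNA, which was not tested.

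The genes around Sdr9c7 and Rdh7 did not move together. In RefSeq order along chromosome 10 the row is Rdh1, Rdh9, Rdh16, Rdh18-ps, Rdh19, Rdh16f2, Rdh7 and Sdr9c7, followed after small non-coding and pseudogene entries by Hsd17b6, an enzyme of steroid metabolism. On fenofibrate against control, Rdh16 was higher by 1.75 ± 0.18 (3.35-fold; limma, adjusted p = 1.74e-09) and Rdh16f2, which lies between Rdh16 and Rdh7, was lower by 2.58 (-2.58 ± 0.21, 5.99-fold; adjusted p = 1.51e-11). Rdh16 ran from 10.70 to 11.32 on fenofibrate, against 7.93 to 10.00 in controls, and Rdh16f2 from 6.69 to 8.76 on fenofibrate, against 9.49 to 11.13 in controls, so neither overlapped. On fish oil against control the same genes differed by -0.00 ± 0.18 and -0.25 ± 0.22 and were not called (limma, adjusted p = 0.992 and 0.535). Between fenofibrate and fish oil Rdh16 differed by 1.75 and Rdh16f2 by -2.34 (limma, adjusted p = 1e-09 and 9.13e-11). Rdh9 was not called on fenofibrate (0.14 ± 0.16) and was called lower on fish oil (-0.54 ± 0.16, limma, adjusted p = 0.0267). Without control replicate 4, 7 or 10 this call was lost (limma, adjusted p = 0.0501, 0.0525 and 0.0576). Leaving out control replicates 1, 2 and 9 together gave -0.77 on fish oil (limma, adjusted p = 0.000219). Hsd17b6, named for its position after its values were seen, was higher than in controls by 0.99 ± 0.35 on fenofibrate and by 1.55 ± 0.35 on fish oil (limma, adjusted p = 0.0251 and 0.00294). Its controls ran from 7.94 to 11.77, and without control replicates 1, 2 and 9 the differences were 0.43 (adjusted p = 0.103) and 1.00 (adjusted p = 0.00147). Without control replicate 1 the fenofibrate difference was 0.73 (adjusted p = 0.0625), and without control replicate 2 it was 0.69 (adjusted p = 0.0623). Rdh1 lay below the filter on all arrays, and Rdh18-ps and Rdh19 were not analysed here. These genes are close relatives, so a probe set can also bind the transcript of a neighbour.

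**Figure D3:**
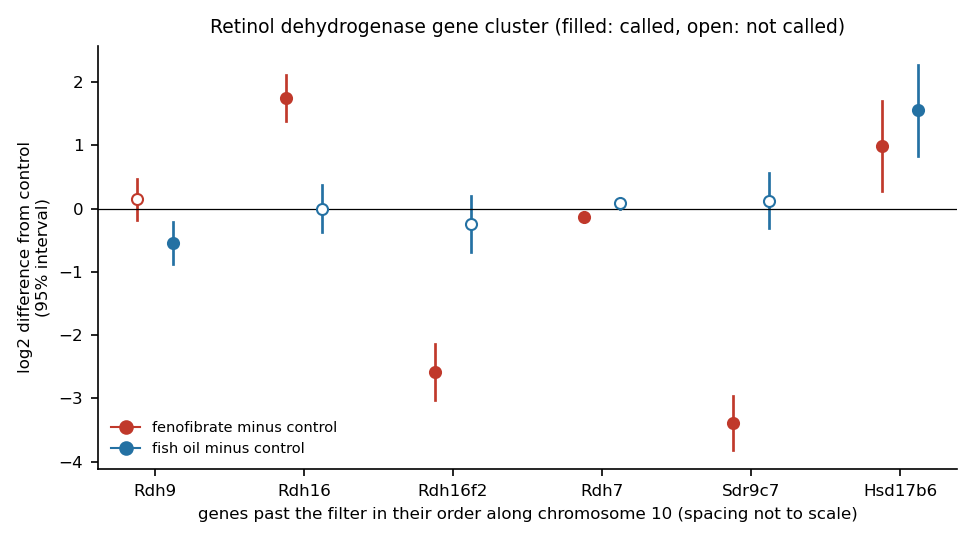
Log2 difference from control (y axis, with 95% intervals) of the 6 genes past the filter in their order along chromosome 10 (x axis, spacing not to scale), in red for fenofibrate and in blue for fish oil; filled points were called. On fenofibrate Rdh16 is high while Rdh16f2 and Sdr9c7 are low and Rdh7 between them is near 0; on fish oil the points of Rdh16, Rdh16f2, Rdh7 and Sdr9c7 are open.

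Rdh10 carries out the first, rate-setting oxidation of retinol to retinal in the embryo and in many adult tissues. Its leading probe set (1426968_a_at) had a median of 8.76 on fenofibrate (8.34 to 8.91), 8.61 on fish oil (8.09 to 8.82) and 8.52 in controls (8.32 to 8.64). Fenofibrate was higher than control by 0.24 ± 0.07, a 1.18-fold change (limma, adjusted p = 0.00592), with 9 of 12 arrays above all controls. Fenofibrate was higher than fish oil by 0.17 ± 0.07 (limma, adjusted p = 0.0418). That call between the diets was lost (adjusted p between 0.0519 and 0.0914) without any single one of fenofibrate replicates 4, 5, 6, 7, 8, 9, 10 and 12 or fish oil replicates 2, 4, 5, 9 and 10. Fish oil replicate 9 was the lowest of all 33 arrays, and without it the difference was 0.13. Fish oil and control differed by 0.07 ± 0.07 and were not called (adjusted p = 0.613). The dimmer probe set of Rdh10 (1460632_at) was called in no comparison and differed by 0.18 ± 0.11 for fenofibrate against control (limma, adjusted p = 0.227).

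Dhrs3 reduces retinal to retinol and works with Rdh10 in setting the retinal supply; its expression is known to respond to retinoic acid. Its probe set ran from 9.46 to 10.10 on fenofibrate (median 9.83), from 9.86 to 10.56 on fish oil (median 10.25) and from 9.64 to 10.26 in controls (median 9.93). The fish oil arrays were the highest and the fenofibrate arrays the lowest, with the controls between them and overlapping both. Only the difference between the diets was called, with fenofibrate below fish oil by 0.37 (-0.37 ± 0.08, 1.29-fold; limma, adjusted p = 0.000381), and 8 of 12 fenofibrate arrays lay below all fish oil arrays. Fish oil exceeded control by 0.24 ± 0.08 (adjusted p = 0.0573), and fenofibrate differed from control by -0.13 ± 0.08 (adjusted p = 0.208). The fish oil difference passed the threshold when any single one of control replicates 4 and 6 or fish oil replicates 8, 9, 10 and 11 was left out (0.26 to 0.27, adjusted p between 0.0223 and 0.0461), and was 0.16 (adjusted p = 0.254) without control replicates 1, 2 and 9.

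Rdh11 is a microsomal reductase that prefers retinal and other aldehydes as substrates. Its promoter at chr12:79190912-79191211 on GRCm38.p6 (minus strand, same window) is shown because the gene had the largest fish oil difference among the members; capitals again mark AGGTCA.
Rdh11: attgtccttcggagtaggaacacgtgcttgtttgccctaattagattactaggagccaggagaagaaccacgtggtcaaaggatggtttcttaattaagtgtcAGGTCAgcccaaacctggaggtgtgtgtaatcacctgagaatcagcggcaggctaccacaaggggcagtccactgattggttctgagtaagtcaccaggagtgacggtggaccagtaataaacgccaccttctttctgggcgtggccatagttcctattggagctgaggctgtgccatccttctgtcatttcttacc
The match lay 147 to 142 bases before the start on the strand of the gene. A window at another annotated start of the gene held none of the motifs.

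The leading Rdh11 probe set (1418760_at) ran from 9.31 to 10.62 on fenofibrate with a median of 9.96. On fish oil it ran from 6.79 to 8.69 with a median of 7.59, and in controls from 8.88 to 10.18 with a median of 9.50. No fish oil array reached the level of any other array, although fish oil replicate 6, the highest of its diet, came near the lowest control. Fish oil was lower than control by 1.83 (-1.83 ± 0.18, 3.55-fold; limma, adjusted p = 7.87e-09), and the second probe set, 1449209_a_at, gave -1.88 ± 0.19 (3.68-fold; adjusted p = 1.62e-08). Leaving out any array kept the leading difference between -1.93 and -1.74, and without control replicates 1, 2 and 9 it was -1.94. Fenofibrate was higher than fish oil by 2.28 ± 0.17, or 4.84-fold (limma, adjusted p = 1.82e-12).

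Fenofibrate was also called higher than control on the leading Rdh11 probe set, by 0.45 ± 0.18 (1.36-fold; limma, adjusted p = 0.0466), with 4 of 12 arrays above all controls. The second probe set, at 0.47 ± 0.19, was not called (adjusted p = 0.0515). The call on the leading probe set was lost (0.38 to 0.46, adjusted p between 0.054 and 0.094) without any single one of fenofibrate replicates 1, 2, 3, 5, 6, 8, 10 and 11 or control replicates 2, 3, 4, 6, 8 and 9. Without control replicates 1, 2 and 9 the difference was 0.34 (adjusted p = 0.164), and with neighbouring array label numbers fitted as a random block adjusted p was 0.103. The second probe set passed without fenofibrate replicate 4, 7, 9 or 12 or control replicate 5 or 10 (0.51 to 0.56, adjusted p between 0.0204 and 0.0398).

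Dhrs4 is a peroxisomal reductase that uses NADPH to reduce retinal and other carbonyl compounds. Its leading probe set (1451559_a_at) averaged 12.08 ± 0.16 on fenofibrate, 11.72 ± 0.15 on fish oil and 11.08 ± 0.23 in controls (SD, n = 12, 11 and 10). Values ran from 11.68 to 12.28 on fenofibrate, from 11.53 to 11.97 on fish oil and from 10.71 to 11.41 in controls. Every array of either diet lay above every control, and 11 of 12 fenofibrate arrays lay above all fish oil arrays; the exception was replicate 11. The difference from control was 1.00 ± 0.08 on fenofibrate (2.00-fold; limma, adjusted p = 2.41e-12) and 0.64 ± 0.08 on fish oil (1.56-fold; limma, adjusted p = 3.59e-07). Fenofibrate exceeded fish oil by 0.35 ± 0.07 (limma, adjusted p = 0.00034). The second probe set, 1419382_a_at, gave 0.93 ± 0.08, 0.61 ± 0.08 and 0.32 ± 0.07 in these comparisons, all called. Dhrs4 was the member called in all 3 comparisons on each of its probe sets. Together, the 4 probe sets of Sdr9c7 and Dhrs4 did not overlap between fenofibrate and control, where 4.49% of all probe sets tested did not overlap. The 4 probe sets of Rdh11 and Dhrs4 did not overlap between fish oil and control (0.88% of all), nor did the 4 of Sdr9c7 and Rdh11 between fenofibrate and fish oil (5.35% of all).

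Cyp26a1 hydroxylates retinoic acid and so starts its breakdown, and its transcription is known to be induced by retinoic acid through elements in its promoter. The window at chr19:37697558-37697857 on GRCm38.p6 (plus strand) is shown because it was the only member window that held one of the repeats searched. Capitals mark AGTTCA repeated after 5 bases, a spacing that retinoic acid receptors bind, which reads TGAACTTTGGGTGAACT on the strand shown.
Cyp26a1: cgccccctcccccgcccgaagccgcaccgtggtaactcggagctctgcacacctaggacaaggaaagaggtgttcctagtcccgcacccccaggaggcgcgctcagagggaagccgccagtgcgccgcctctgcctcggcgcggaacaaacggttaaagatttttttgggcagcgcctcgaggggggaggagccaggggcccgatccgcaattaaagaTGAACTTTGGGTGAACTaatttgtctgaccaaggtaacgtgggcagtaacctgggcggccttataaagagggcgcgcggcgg
The match lay 32 to 16 bases before the start. The table held 12 starts for 7 of the 9 member genes, and 8 of the 32851 mouse promoters (0.0244%) held this repeat. The repeat of AGGTCA after 1 base was in 0 member windows and in 13 promoters (0.0396%), and that after 5 bases was in 0 member windows and in 3 promoters (0.00913%).

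Cyp26a1 was dim in these livers, with only 15 of 33 arrays at or above 4. Most of these were fenofibrate arrays, and without that group the probe set would not have passed the filter. It ran from 3.51 to 4.58 on fenofibrate with a median of 4.13. On fish oil it ran from 2.65 to 4.91 with a median of 3.79, and in controls from 2.77 to 4.63 with a median of 3.34. The fenofibrate arrays lay in a narrower band, wholly inside the spread of the controls. Fenofibrate was called higher than control by 0.58 ± 0.21 (1.49-fold; limma, adjusted p = 0.0277), and leaving out control replicate 8 (0.52, adjusted p = 0.0557) or control replicate 9 (0.49, adjusted p = 0.0601) ended that call. Without control replicates 1, 2 and 9 the difference was 0.41 (adjusted p = 0.163). The call was also lost with array weights (0.45, limma, adjusted p = 0.0806) and with quantile normalization repeated (0.51, adjusted p = 0.052). Leaving out the arrays whose label number carries the letter A ended it too (0.51, adjusted p = 0.108). Fish oil exceeded control by 0.32 ± 0.21 (limma, adjusted p = 0.367), and fenofibrate exceeded fish oil by 0.26 ± 0.20 (adjusted p = 0.343). The 95% interval of that last difference ran from -0.15 to 0.67.

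Rbp4 and Ttr carry retinol in plasma and are made in hepatocytes. Both sat near the top of the scale, where the highest value of the table was 15.6 and differences can be compressed. Rbp4 ran from 14.13 to 14.25 on fenofibrate, from 14.19 to 14.34 on fish oil and from 14.18 to 14.34 in controls. It was lower on fenofibrate than in controls by 0.10 (-0.10 ± 0.03, 1.07-fold; limma, adjusted p = 0.0107), with 4 of 12 arrays below all controls. The differences of fish oil from control (-0.03 ± 0.03) and of fenofibrate from fish oil (-0.07 ± 0.03) were not called (adjusted p = 0.592 and 0.0747). Of 4 Ttr probe sets, 3 were called in no comparison, and the leading one (1455913_x_at) had medians of 14.87 on fenofibrate, 14.91 on fish oil and 14.91 in controls. Its 95% interval for fenofibrate against control ran from -0.10 to 0.02. The dimmest Ttr probe set (1451580_a_at) was called lower on fenofibrate by 0.09 (-0.09 ± 0.03; limma, adjusted p = 0.0444). That call was lost (adjusted p between 0.0507 and 0.0891) without any single one of fenofibrate replicates 1, 2, 3, 4, 6, 10, 11 and 12 or control replicates 4 to 10.

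Hepatocyte markers were also lower on fenofibrate: 7 of 8 were called lower than in controls, with a median difference of -0.33, and on fish oil 3 of 8 were. Over all probe sets tested, 17% were called lower on fenofibrate and 5.34% on fish oil (19.6% and 6.23% higher). These shares stand beside every marker count here. The mean over the 8 markers had a median of 13.62 on fenofibrate (highest array 13.78), 13.82 on fish oil (13.77 to 13.95) and 13.94 in controls (lowest array 13.87), so no fenofibrate array reached a control. Of 11 stellate cell markers past the filter, of 15 on the array, 8 were called lower and 1 higher on fenofibrate and 0 were called on fish oil (limma; 1 of the 11 had an unadjusted p under 0.05 there). The mean over the 15 ran from 6.77 to 7.02 on fenofibrate, from 6.87 to 7.09 on fish oil and from 6.92 to 7.23 in controls. Of 7 markers each, 2 sinusoidal endothelial markers were lower and 1 higher on fenofibrate, and 2 Kupffer cell markers were lower. On fish oil 1 sinusoidal endothelial marker was called lower, and 5 of the 7 had an unadjusted p under 0.05. The mean over these 7 ran from 7.54 to 7.92 on fenofibrate, from 7.36 to 7.66 on fish oil and from 7.64 to 7.91 in controls, so the fish oil arrays barely reached the controls. No Kupffer cell marker was called on fish oil (limma; 0 of 7 at an unadjusted p under 0.05). Of the cholangiocyte, pancreatic acinar and adipocyte markers, 1 of each list passed the filter, while the acinar marker Cpa1 and the adipocyte marker Adipoq lay below it. The cholangiocyte marker was called in no comparison. Cela1, of the acinar list, was lower on fenofibrate by 1.13 against control (-1.13 ± 0.18) and by 1.11 against fish oil (-1.11 ± 0.17). Car3, of the adipocyte list and also expressed in hepatocytes, was lower on fenofibrate by 0.56 against control (-0.56 ± 0.10) and by 0.80 against fish oil (-0.80 ± 0.10). Their part in the differences of the retinoid genes was not tested. In RNA of whole liver, fewer cells of a type and less RNA per cell cannot be told apart.

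Beyond the 9 members, a list of 50 other retinoid genes was examined, of which 45 were on the array and 28 passed the filter. On fenofibrate against control 10 were called higher and 9 lower, where 36.6% of all probe sets tested were called (19.6% higher, 17% lower). On fish oil against control 5 were higher and 3 lower, where 11.6% of all were called (6.23% higher, 5.34% lower). Between fenofibrate and fish oil 9 were higher and 8 lower (34.5% of all called). The same shares stand beside the counts by role in the next paragraphs. The 3 called lower on fish oil became 5 without control replicate 1 and without control replicates 1, 2 and 9. The retinoic acid receptors Rara, Rarb and Rarg, the cellular binding proteins Rbp2, Rbp7, Crabp1 and Crabp2, and Stra6 and Cyp26b1 were below the filter.

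Of 6 genes that make or release retinyl ester or act on retinol stores, 5 passed the filter, and on fenofibrate 4 were called higher and 0 lower; Pnpla3, a lipase, lay below the filter. Retsat, which saturates a double bond of retinol, was higher than in controls by 1.53 ± 0.12 on fenofibrate (2.89-fold; limma, adjusted p = 2.37e-12) and by 1.17 ± 0.12 on fish oil (2.25-fold; adjusted p = 1.62e-08). Its dimmer probe set gave 2.50 on fenofibrate and 1.68 on fish oil. Dgat1, which esterifies diacylglycerol and also retinol, was higher by 0.75 ± 0.09 on fenofibrate and by 0.27 ± 0.09 on fish oil, and the fish oil call (adjusted p = 0.0368) was lost in 10 of the 21 fits that left out 1 array and without control replicates 1, 2 and 9 (0.21, adjusted p = 0.164). The lipases Pnpla2 and Lipe were higher on fenofibrate by 0.65 ± 0.10 and 0.77 ± 0.17 and were not called on fish oil (0.18 ± 0.10 and 0.24 ± 0.17). Compared directly, fenofibrate exceeded fish oil by 0.47 for Pnpla2 and 0.53 for Lipe (limma, adjusted p = 0.000193 and 0.00956). Lrat, which makes retinyl ester in stellate cells, was not called on either diet (-0.15 ± 0.11 on fenofibrate and 0.01 ± 0.11 on fish oil; limma, adjusted p = 0.297 and 0.974).

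Among 9 other retinol and retinal redox enzymes past the filter, 3 were called higher and 4 lower on fenofibrate, and 0 higher and 2 lower on fish oil. Besides Rdh16 and Rdh16f2, Rdh5, known for 11-cis-retinol oxidation in the eye, was lower on fenofibrate by 1.38 (-1.38 ± 0.17; limma, adjusted p = 8.06e-08). On fish oil Rdh5 differed by -0.49 ± 0.17 (adjusted p = 0.0633), by -0.60 (adjusted p = 0.0119) without control replicate 1, and by -0.62 (adjusted p = 0.00964) without control replicates 1, 2 and 9. Dhrs7 was lower on fish oil by 0.45 (-0.45 ± 0.11; adjusted p = 0.00481). Between fenofibrate and fish oil 4 of the 9 enzymes were called higher and 4 lower. Dhrs7 was higher on fenofibrate there, by 0.73 (limma, adjusted p = 1e-06). The other calls on fenofibrate against control were small and outside the rule for named genes in that comparison. Of their genes, Adh1, Adh4 and Adh5 were named after their values were seen. These calls were Dhrs7 (0.28 ± 0.11), Adh1 (0.12 ± 0.04), Adh4 (-0.23 ± 0.09) and Adh5 (-0.12 ± 0.04), and each was lost in at least 1 fit that left out 1 array. For Dhrs7 and Adh1 this was so without control replicate 2 (adjusted p = 0.0942 and 0.0553), for Adh4 without control replicate 7 (0.0754) and for Adh5 without control replicate 3 (0.0585), among others. Without control replicates 1, 2 and 9 Adh4 and Adh5 differed more (-0.37 and -0.20; adjusted p = 0.000209 and 6.07e-05), while Dhrs7 and Adh1 were not called (0.14 and 0.09; adjusted p = 0.229 and 0.0887).

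Of 6 enzymes that can oxidize retinal to retinoic acid, 4 passed the filter, and on fenofibrate 3 of these were called higher and 1 lower than in controls; Aldh1a2 and Aldh1a3 lay below the filter. Aldh1a1, the main retinal dehydrogenase of adult liver, was higher than in controls by 0.38 ± 0.05 on fenofibrate and by 0.47 ± 0.05 on fish oil (limma, adjusted p = 6.46e-08 and 1.48e-08). Its relative Aldh1a7 was higher on fenofibrate by 0.56 ± 0.07 and not called on fish oil (-0.03 ± 0.07). Between the diets Aldh1a7 was higher on fenofibrate than on fish oil by 0.59 (limma, adjusted p = 4.44e-08). The aldehyde oxidase Aox1 was higher on both diets, by 0.96 ± 0.13 on fenofibrate and 1.14 ± 0.13 on fish oil. Its neighbour in the family, Aox3, went opposite ways: it averaged 10.33 ± 0.22 on fenofibrate, 12.47 ± 0.22 on fish oil and 11.50 ± 0.23 in controls (SD), and no array of one diet overlapped another diet. Fenofibrate was lower than control by 1.18 (-1.18 ± 0.09) and fish oil higher by 0.97 ± 0.10, and the difference between the diets was -2.14 ± 0.09 (limma, adjusted p = 7.37e-19).

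Of 7 genes of retinoid binding and cell uptake on the array, 2 passed the filter, and both were lower on fenofibrate. Stra6l, a liver receptor for Rbp4, differed by -0.64 ± 0.08 and Scarb1, a lipoprotein receptor that also takes up carotenoids, by -0.58 ± 0.06 (limma, adjusted p = 4.47e-08 and 7.8e-10); on fish oil they were not called (-0.13 ± 0.08 and -0.08 ± 0.06). Against fish oil, fenofibrate differed by -0.51 for Stra6l and -0.50 for Scarb1 (limma, adjusted p = 1.71e-06 and 1.17e-08). Bco1, which cleaves beta-carotene to retinal, was lower than in controls on both diets, by 1.11 on fenofibrate (-1.11 ± 0.14) and by 0.96 on fish oil (-0.96 ± 0.14). Rxra, the retinoid X receptor of hepatocytes and the partner of PPARα on DNA, was lower on fenofibrate by 0.36 (-0.36 ± 0.07, limma, adjusted p = 5.1e-05). It was not called on fish oil (-0.05 ± 0.07), and its difference of fenofibrate from fish oil was -0.31 (limma, adjusted p = 0.000308). The leading probe sets of the retinoic acid responsive genes Tgm2, Rarres2 and Hoxa5 were called in no comparison (-0.16 to 0.23; limma, with 1 of 3 at an unadjusted p under 0.05 on fenofibrate, 0 on fish oil and 1 when the diets were compared). Rarres2 passed the threshold on fenofibrate without control replicate 1 (-0.23, adjusted p = 0.00364) or fenofibrate replicate 11 (-0.19, adjusted p = 0.0372) and on fish oil without control replicate 1 (-0.20, adjusted p = 0.0286). Rarres2 also passed without control replicates 1, 2 and 9, on fenofibrate (-0.23, adjusted p = 0.00858) and on fish oil (-0.20, adjusted p = 0.0491). Tgm2 passed between fenofibrate and fish oil without fish oil replicate 9 (0.26, adjusted p = 0.0384). Without control replicates 1, 2 and 9 its difference of fenofibrate from control was 0.29 (adjusted p = 0.00171), against 0.08 (adjusted p = 0.553) with all arrays, and that of fenofibrate from fish oil was called too (0.23, adjusted p = 0.00485). Of the 4 other Tgm2 probe sets, 3 were called higher on fenofibrate than on fish oil, by 0.30 to 0.39 (limma, adjusted p between 0.0203 and 0.0275). The remaining one gave 0.26 (limma, adjusted p = 0.0533) and the leading one 0.23 (adjusted p = 0.0774). The Tgm2 probe sets thus had the same direction there and fell on both sides of the threshold.

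**Figure D4:**
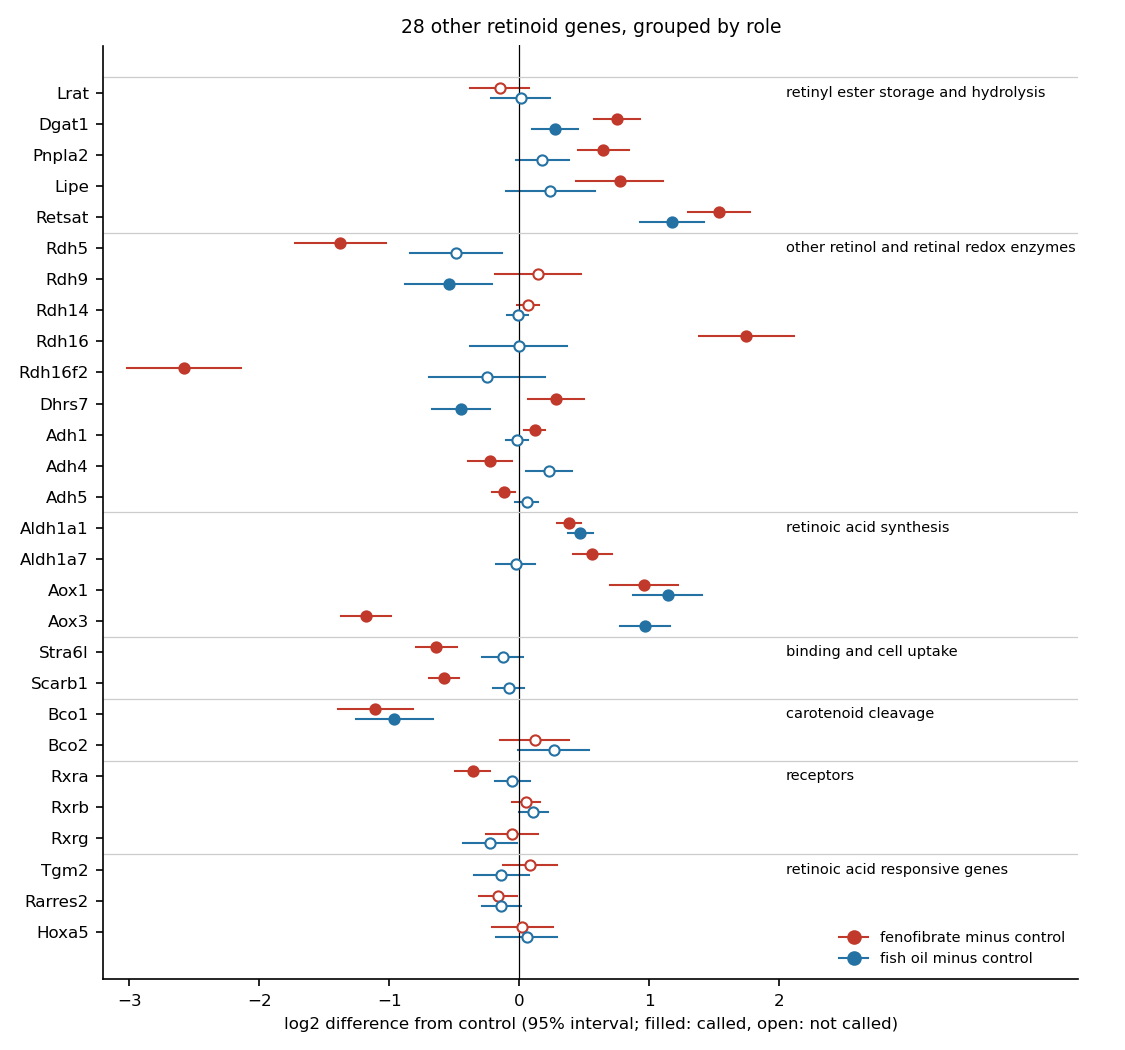
Log2 difference from control (x axis, with 95% intervals) of the 28 other retinoid genes past the filter (y axis), grouped by role, in red for fenofibrate and in blue for fish oil; filled points were called. Retsat, Aldh1a1 and Aox1 lie right of 0 on both diets, Bco1 lies left of 0 on both, and Aox3 lies at -1.18 on fenofibrate and at 0.97 on fish oil.

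The 9 members did not share a single pattern over the arrays. Within diets, as correlations of residuals over the 33 arrays, the probe sets of one gene moved together for Rdh11 (r = 0.953), Dhrs4 (0.943) and Sdr9c7 (0.849), less so for Rdh10 (0.565) and between 0.134 and 0.722 for Ttr. Between leading probe sets of different members such r lay between -0.42 (Cyp26a1 and Ttr) and 0.54 (Sdr9c7 and Dhrs4). Fenofibrate replicate 11 was the lowest array of its diet on the leading probe sets of Sdr9c7, Rdh7, Rdh10 and Dhrs4. Arrays and their preparation are shared by all these values.

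Among 8996 other genes, those with the pattern most like a member over the 33 arrays were found by Pearson r, which holds the differences between diets as well as those between mice. For Sdr9c7 they were Mug1, a plasma protease inhibitor (r = 0.954), the complement component C9 (0.945) and Glyat, a glycine acyltransferase (0.943). Within diets r of Sdr9c7 with Mug1 was 0.478, with C9 0.402 and with Glyat 0.590. For Rdh11 they were Pmvk, phosphomevalonate kinase (0.973), Fasn, fatty acid synthase (0.963), and Fdps, farnesyl diphosphate synthase (0.961), and within diets r with these was 0.820, 0.722 and 0.782. On fish oil against control Pmvk differed by -1.79 ± 0.18, Fasn by -2.26 ± 0.17 and Fdps by -2.71 ± 0.26, beside -1.83 ± 0.18 for Rdh11. For Dhrs4 they were Hacd1, a dehydratase of very long fatty acids (0.947), Retsat (0.947) and Acadvl, a mitochondrial acyl-CoA dehydrogenase (0.943), and within diets r was 0.678, 0.694 and 0.616.

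The remaining members had weaker nearest patterns. Rdh7 was most like Ndrg2 (r = 0.899), Cyp2d10 (0.884) and Proc (0.874), and Dhrs3 most like Zfp955a (0.822), Etv5 (0.789) and Enpp3 (0.756). Rbp4 was most like the hepatocyte products Apoh (0.819), Serpina1c (0.809) and Ahsg (0.787), and Rdh10 most like Mcts1 (0.799), Txnrd2 (0.798) and Sbds (0.781). Ttr was most like Iah1 (0.706), Gdi2 (0.666) and Slc38a2 (0.662). Cyp26a1, the dimmest member, had the weakest likeness, with Sipa1l2 (0.634), Prkra (0.586) and Nfkbil1 (0.582).

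**Figure D5:**
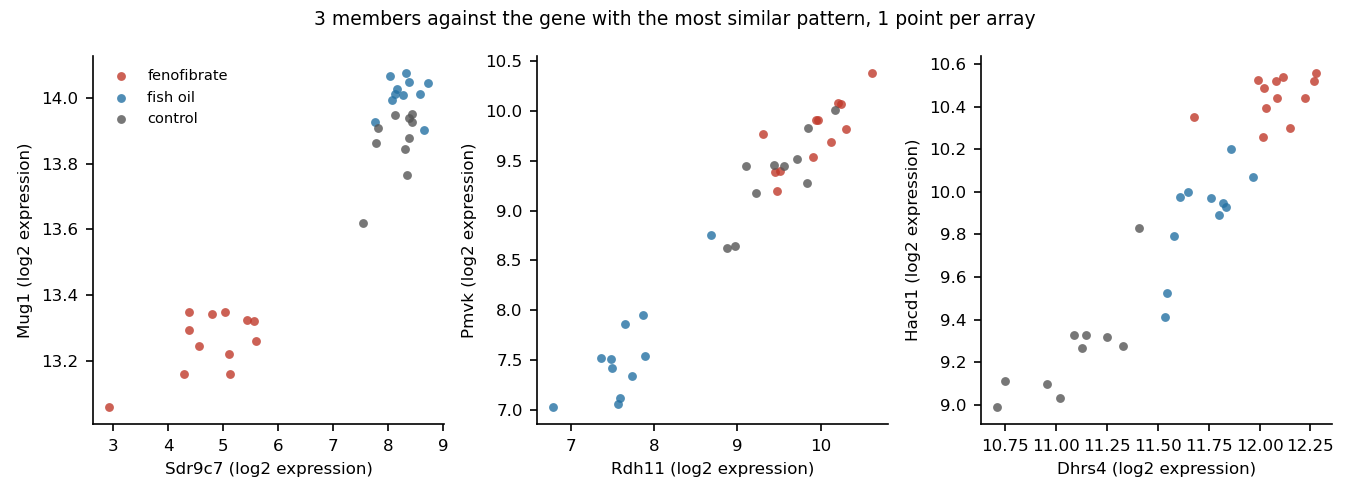
Log2 expression of Sdr9c7, Rdh11 and Dhrs4 (x axes) against that of the gene with the highest Pearson r over the 33 arrays, Mug1, Pmvk and Hacd1 (y axes); each point is an array, coloured by diet. Sdr9c7 and Mug1 form a low fenofibrate cloud and a high cloud of the other diets (r = 0.954 over all arrays, 0.478 within diets), while Rdh11 and Pmvk also line up within each diet (0.820 within diets).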

How the data were processed

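Liver RNA of 33 mice was hybridised to Affymetrix GeneChip arrays. The authors deposited a log2 level for each probe set and array. Per the submitters' processing notes, GCRMA 2.24.1 was used. GCRMA models background from probe sequence and equalizes array distributions (array medians 2.90 to 2.97). Differences of dim and very bright probe sets can be compressed on arrays, which was not tested here. Arrays have no read depth, and their number limits the precision.

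The 64 control probe sets were left out, and 17162 of 45037 others reached a log2 value of 4 on at least 10 arrays. Of all non-control probe sets 34945 carried 1 gene, 932 several and 9160 none; 34741 symbols were updated by gene identifier (GRCm38.p6) and 204 kept. Each probe set was fitted over 3 diets with limma 3.58.1 (statmod 1.5.0, R 4.3.3) through lmFit, contrasts and eBayes; tests were two-sided and p was adjusted by Benjamini-Hochberg over the 17162 probe sets. The fit was tested on simulated data. A gene is led by its brightest probe set on average. Named genes are all members, up to 3 called genes with the smallest adjusted p per group of the retinoid list and comparison, with Lrat, Aldh1a1, Rara, Rxra and Retsat always (1 further gene of this rule is not reported here), 3 nearest patterns per member, and Cyp4a14, Ehhadh and Acot1. Members, lists and tests were chosen with earlier results of these data known. Whether mice shared a cage is not stated per array, and equal replicate numbers are not stated to mark anything shared. Same-numbered arrays deviated from their diet means with correlations between -0.19 and 0.37. The median was 0.0004 for fenofibrate and control, 0.18 for fish oil and control, and -0.04 for fenofibrate and fish oil. The numbers were not taken as pairs in the main fit, and a fit with them as a block is given below. Promoters came from RefSeq tables, by symbol. Alternatives changed the filter, the unit tested, scaling, variance model, arrays, weights and blocks.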

Additional observations from a re-analysis of the deposited data

How the results depend on the processing

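Each result was recomputed with other filters, 1 probe set per gene, other scaling, another variance model, only the groups compared, array weights, blocks and arrays left out; the set without control replicates 1, 2 and 9 together was chosen after seeing the data. Of 4854 recomputed values 4672 kept their side of the threshold, 131 lost the call or fell short and 51 gained it. A reversed direction was counted only where either fit made a call, and there were 0 of these. Differences called in neither fit could change sign. Rdh9 on fenofibrate against control was 0.14 with all arrays and -0.09 without control replicates 1, 2 and 9. The calls of Sdr9c7 on fenofibrate, Rdh11 on fish oil and Dhrs4 on both diets held in every alternative run. On fenofibrate against control the member probe sets called higher numbered 3 in place of 5 with quantile normalization repeated, with neighbouring array label numbers as a random block, without arrays whose label number carries the letter A and without control replicates 1, 2 and 9, and 3 to 6 when single arrays were left out. On fish oil against control the other retinoid genes called lower numbered 5 in place of 3 with array weights and without control replicates 1, 2 and 9, and 2 to 5 when single arrays were left out. With 1 probe set per gene, where fewer units are tested, all calls numbered 1978 higher and 1698 lower on fenofibrate against control, 678 higher on fish oil against control, and 1786 higher and 1721 lower between the diets, against 3370, 2912, 1069, 2988 and 2938 probe sets. The calls higher on fish oil over all probe sets were 1620 with array weights and 683 with the random block, whose correlation was 0.22; the cause was not tested. With the replicate number as a fixed replicate block, the second Rdh11 probe set passed on fenofibrate (0.53, adjusted p = 0.0109), Dhrs3 passed on fish oil (0.26, adjusted p = 0.0369), and Ttr 1451580_a_at (adjusted p = 0.0589) and Rdh10 between the diets (adjusted p = 0.0741) lost their calls; the numbers are not shown to pair mice. With the random block Cyp26a1 (adjusted p = 0.0775), Rdh11 (0.103) and Ttr 1451580_a_at (0.0817) lost their calls on fenofibrate, Rdh10 (0.064) its call between the diets, Dgat1 (0.106) its call on fish oil, and Dhrs7 (0.0537), Adh4 (0.0663) and Adh5 (0.061) theirs on fenofibrate. Arrays with consecutive label numbers deviated together (median r 0.10 over 16 pairs, against -0.14 over 150 other pairs of a diet), so adjusted p may be understated. Dim Cyp26a1 and bright Rbp4 and Ttr are limited by the scale: a small or absent call there does not show an equal level.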
